A study of Homo sapiens with 4 samples.

Results

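Open chromatin intervals of 2000 bp or more were examined in C4-2B and C4-2BER cells, a pair of human prostate cancer cell lines. The intervals were chosen by their measured width in the peak list of either line. There were 148 of them among the 149676 intervals of the C4-2B list (0.0989%) and 140 among the 118728 intervals of the C4-2BER list (0.118%). Overlapping members of the 2 lists were merged, which gave 221 regions. Of these, 67 were broad in both lists, 81 in C4-2B only and 73 in C4-2BER only.

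The study used ATAC-seq to ask how accessible chromatin differs once cells resist enzalutamide, an inhibitor of androgen receptor signalling. C4-2B is an adenocarcinoma line, and C4-2BER arose from it under continuous exposure to this drug and is labelled neuroendocrine-like. Each line had 2 libraries, which the authors merged before peaks were called, so that 1 list per line was analysed and no difference between the lines has a replicate check or a test. C4-2BER is 1 derived line. The C4-2B list came from more reads, since the genome-wide background of a 200 bp window was 2.24 reads there and 1.87 reads for C4-2BER.

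In ATAC-seq the Tn5 transposase inserts adapters where DNA is not wrapped in nucleosomes. A peak of the usual size spans one gap between nucleosomes, whereas a broad interval spans several neighbouring gaps with no stretch between them that falls to background. In mammals such stretches are known from promoters in CpG islands, which are rich in unmethylated CpG dinucleotides and often drive genes on both strands, and from clusters of enhancers. Copies of mitochondrial DNA in the nuclear genome can also collect reads that come from the mitochondrial genome.

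The following windows of 200 bp are centred on the lead summit, the one with the highest −log10 p, of the widest regions of each class outside exons and, for a region broad in one list only, on that of the region whose covered length differed most from the other list. They are given on the forward strand of hg38, 5′ to 3′, with each CpG dinucleotide in capitals, because CpG content set most broad regions apart from ordinary intervals. The first pair was broad in both lists, the next 3 in C4-2B only and the last 3 in C4-2BER only.
Short arm of chromosome 21 (chr21:6369991-6370190): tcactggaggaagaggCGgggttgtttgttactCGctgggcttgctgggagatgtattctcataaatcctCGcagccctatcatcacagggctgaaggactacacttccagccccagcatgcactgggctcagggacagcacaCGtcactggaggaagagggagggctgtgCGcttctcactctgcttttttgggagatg
ANP32B promoter (chr9:97983087-97983286): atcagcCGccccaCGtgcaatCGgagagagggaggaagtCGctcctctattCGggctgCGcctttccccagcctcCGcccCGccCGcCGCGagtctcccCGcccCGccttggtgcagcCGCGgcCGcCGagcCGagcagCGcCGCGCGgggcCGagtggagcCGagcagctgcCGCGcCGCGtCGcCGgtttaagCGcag
Upstream of ZIC2 (chr13:99980519-99980718): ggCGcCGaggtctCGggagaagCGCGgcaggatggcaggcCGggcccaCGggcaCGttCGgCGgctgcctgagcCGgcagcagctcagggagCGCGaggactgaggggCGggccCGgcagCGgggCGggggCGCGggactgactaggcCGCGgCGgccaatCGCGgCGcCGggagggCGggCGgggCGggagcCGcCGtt
Upstream of ACSL5 (chr10:112362034-112362233): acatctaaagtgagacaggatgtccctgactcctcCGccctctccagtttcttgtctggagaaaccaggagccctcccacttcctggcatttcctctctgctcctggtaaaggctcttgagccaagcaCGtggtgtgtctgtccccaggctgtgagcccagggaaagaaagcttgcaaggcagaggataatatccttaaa
Intron of AQP4-AS1 (chr18:26765591-26765790): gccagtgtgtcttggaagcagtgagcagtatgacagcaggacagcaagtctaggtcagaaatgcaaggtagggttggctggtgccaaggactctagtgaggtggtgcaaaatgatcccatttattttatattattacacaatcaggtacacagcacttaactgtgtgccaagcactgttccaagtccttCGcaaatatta
Intron of ACVR2B (chr3:38455433-38455632): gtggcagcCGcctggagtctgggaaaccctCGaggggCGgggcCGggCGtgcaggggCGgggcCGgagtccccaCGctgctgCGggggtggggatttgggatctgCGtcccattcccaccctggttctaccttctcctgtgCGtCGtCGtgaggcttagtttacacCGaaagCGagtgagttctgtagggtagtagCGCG
Between RNU4-2 and RNU4-1 (chr12:120292120-120292319): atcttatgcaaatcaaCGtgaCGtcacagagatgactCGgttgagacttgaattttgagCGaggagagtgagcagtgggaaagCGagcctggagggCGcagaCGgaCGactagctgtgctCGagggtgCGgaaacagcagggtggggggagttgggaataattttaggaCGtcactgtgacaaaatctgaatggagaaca
Beside RNA5SP18 (chr1:228647608-228647807): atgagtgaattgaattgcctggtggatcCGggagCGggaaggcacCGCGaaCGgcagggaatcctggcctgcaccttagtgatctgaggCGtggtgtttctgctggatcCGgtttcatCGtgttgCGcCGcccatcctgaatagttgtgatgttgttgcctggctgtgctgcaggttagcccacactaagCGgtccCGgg
The windows of ANP32B, which encodes an acidic nuclear phosphoprotein that binds histones, and of ZIC2, a zinc finger transcription factor of neural development, each held 31 CpGs, with a GC content of 75% and 80.5%. The ACVR2B window held 17 CpGs. By contrast, the window upstream of ACSL5 held 2 CpGs and that of AQP4-AS1 held 1. The windows at RNA5SP18 and at the U4 genes held 12 and 11, and that of chromosome 21 held 5.

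Most of the broad regions lay over promoters. A transcription start site (TSS) of a protein-coding transcript was inside 125 of the 148 C4-2B members (84.5%, Wilson 95% interval 77.8 to 89.4%), while 9.66% of all C4-2B intervals held one. The count was 121 of 140 in C4-2BER (86.4%, 79.8 to 91.1%), beside 12.9% of all C4-2BER intervals. Wilson intervals cover counting error only. The share rose with width over the whole of each list. In C4-2B it was 1.48% under 250 bp, 12.8% between 500 and 999 bp and 59.8% between 1000 and 1499 bp. It was 83.4% between 1500 and 1999 bp, so that intervals just under the limit held a coding TSS about as often as the members did. The corresponding C4-2BER shares were 1.90%, 17.0%, 73.2% and 88.2%.

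**Figure D1:**
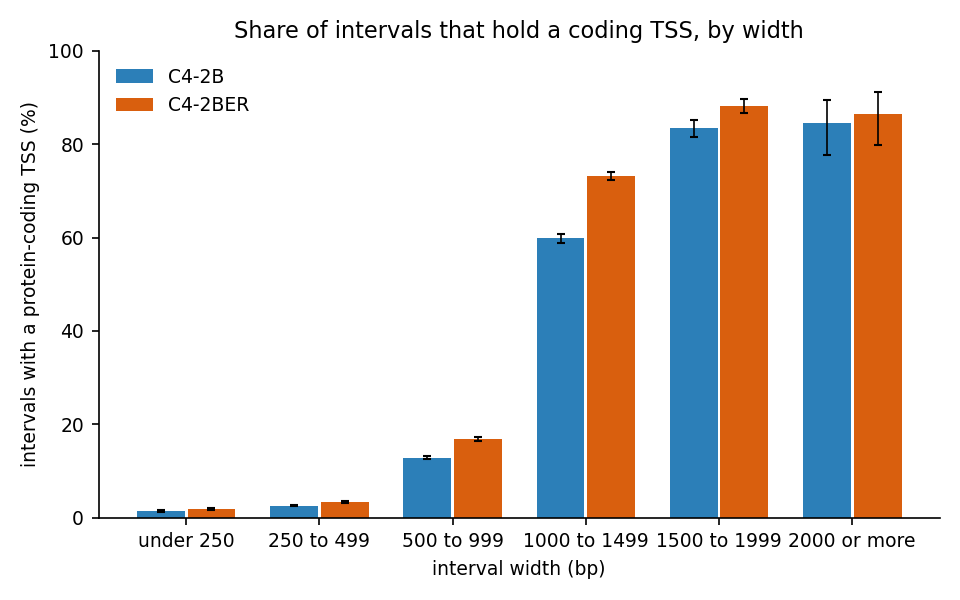
Percent of intervals that hold a protein-coding TSS in each width class (bp), for C4-2B (blue) and C4-2BER (orange), with Wilson 95% intervals as bars. The share climbs from 1.48% and 1.90% in the narrowest class to 84.5% and 86.4% at 2000 bp or more, and the widest class is close to the one before it.

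By class, a coding TSS was inside 56 of the 67 regions broad in both lists (83.6%, 72.9 to 90.6%), 69 of the 81 broad in C4-2B only (85.2%, 75.9 to 91.3%) and 65 of the 73 broad in C4-2BER only (89.0%, 79.8 to 94.3%). These shares overlapped within their intervals. In all, 229 of 19663 protein-coding genes (1.16%) had a TSS in a broad region, with 67 genes in regions of both lists, 80 in C4-2B only and 82 in C4-2BER only. In the 140 regions that held a single coding gene with its canonical TSS inside, the region reached a median of 969 bp upstream of the TSS (quartiles 607 and 1431) and 1141 bp downstream (767 and 1554). The longer side was downstream in 76 of these 140 regions (54.3%, 46.0 to 62.3%).

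Divergent promoters, in which coding genes start on opposite strands within the interval, made up 21 C4-2B members (14.2%, 9.47 to 20.7%) and 26 C4-2BER members (18.6%, 13.0 to 25.8%). The shares over all intervals were 0.867% and 1.14%. In intervals of 1500 to 1999 bp they were 12.8% and 14.1%, inside the Wilson intervals of the members. A wide interval has more room for 2 opposed TSSs than a narrow one. Among intervals with a coding TSS, the members were divergent in 16.8% (11.3 to 24.3%) and 21.5% (15.1 to 29.6%), and all such intervals in 8.98% and 8.83%. Broad divergent regions in both lists included those of NFYA with OARD1, where NFYA is a subunit of the CCAAT-binding factor NF-Y, and of ELF1 with WBP4, where ELF1 is an ETS transcription factor.

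Base composition followed the promoters. The CpG observed over expected ratio, which compares CpGs with the number that the C and G content would give, had a median of 0.781 in the C4-2B members (quartiles 0.682 and 0.851) and 0.219 in all C4-2B intervals. In C4-2BER it was 0.784 (0.684 and 0.860) and 0.247. Intervals of 1500 to 1999 bp had medians of 0.774 in C4-2B and 0.791 in C4-2BER, close to those of the members. Among intervals with a coding TSS the gap was small, with 0.807 in members and 0.769 in all such intervals of C4-2B, and 0.804 and 0.767 in C4-2BER. The 23 C4-2B members without a coding TSS had a median of 0.437, and the 19 C4-2BER members one of 0.639, while all intervals without a coding TSS had 0.202 and 0.220.

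Consensus motifs were read within 100 bp of the lead summit on both strands. The GC box bound by SP and KLF factors (GGGCGG) was in 93 of 125 C4-2B members with a coding TSS (74.4%, 66.1 to 81.2%) and in 63.3% of all C4-2B intervals with one. In C4-2BER it was in 89 of 121 (73.6%, 65.1 to 80.6%) and in 64.9%. The ETS motif (CCGGAAG) was in 8.80% and 10.7% of these members (4.98 to 15.1% and 6.39 to 17.5%), beside 13.4% of all intervals with a coding TSS in either list. The next shares concern intervals with no coding TSS inside. The forkhead motif (TGTTTAC) was in 0 of 23 C4-2B members (0 to 14.3%) and 0 of 19 C4-2BER members (0 to 16.8%). It was in 10.6% and 8.29% of all intervals without a coding TSS. The cyclic AMP response element (TGACGTCA) was in 3 of 23 (13.0%, 4.54 to 32.1%) and 3 of 19 (15.8%, 5.52 to 37.6%), beside 0.234% and 0.300%. Of these, the regions at DLEU2 and inside KDM6B were in both lists, the others being the U4 region in C4-2BER and a region 331 kb from SARAF in C4-2B. The DLEU2, KDM6B and U4 regions held TSSs of noncoding genes, and the KDM6B region lay 0.359 kb from the coding TSS of KDM6B. A motif match is a description of these letters and not a bound site.

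Every member held more than 1 summit, in 148 of 148 C4-2B and 140 of 140 C4-2BER intervals, beside 18.6% and 20.8% of all intervals. Members were chosen by width, and a wide interval has room for more summits. The median member had 5 summits in either list, with a range from 3 to 11 in C4-2B and from 2 to 10 in C4-2BER. The summits of members lay a median of 396 bp (quartiles 317 and 526) apart in C4-2B and 398 bp (318 and 527) apart in C4-2BER, beside 332 and 335 bp over all intervals. Per kb, members had a median of 2.30 and 2.20 summits. Pooled over intervals, the density was 2.26 and 2.20 per kb in members. It was 2.15 and 2.17 per kb in intervals of 1500 to 1999 bp. The single member with 2 summits was the C4-2BER interval of 2178 bp at RBPJ, the DNA-binding factor of Notch signalling. The most summits were in a pseudogene region on chromosome 1, with 11 and 10. At most 8 were found in the chromosome 5 and chromosome 21 regions described next, at EXTL2 and SLC30A7 (8 in C4-2BER, 5 in C4-2B) and at VPS9D1 and ZNF276 (7 in C4-2B, 8 in C4-2BER).

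**Figure D2:**
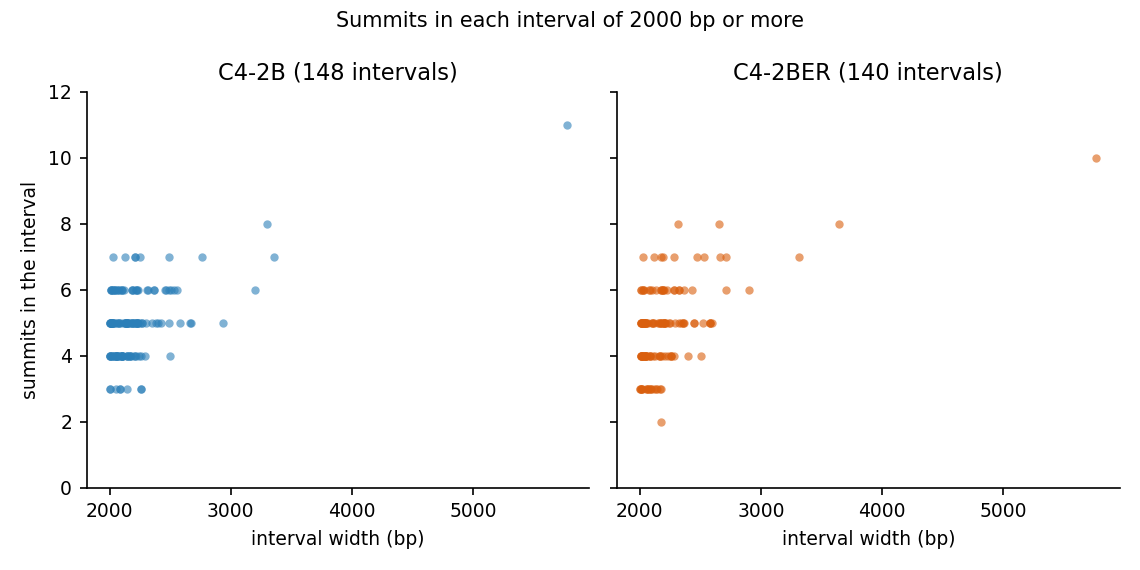
Number of summits in each interval of 2000 bp or more against its width in bp, for C4-2B (left, 148 intervals) and C4-2BER (right, 140 intervals), 1 point per interval. Most points lie between 3 and 7 summits, and the interval of 5771 bp in C4-2B and 5766 bp in C4-2BER stands alone at 11 and 10 summits.

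The members were strong without being the strongest peaks. The lead summit of the median member had 149 reads per 200 bp in the C4-2B list (range 61 to 391) and 141.5 in the C4-2BER list (43 to 395), beside 29 and 23 over all intervals. Intervals of 1500 to 1999 bp had medians of 146 and 131 reads, close to those of the members. In 1 C4-2B member and 2 C4-2BER members another summit held more reads than the lead one, by at most 4 and 2 reads. The median rank percentile by −log10 p within the list was 89.3 and 91.9. The authors' fold enrichment over local background had a median of 6.61 in the C4-2B members and 6.49 over all C4-2B intervals, and 6.58 and 5.93 in C4-2BER. The local background under the lead summit was 9.25 times the genome-wide floor in the median C4-2B member and 11.0 times in C4-2BER, beside 1.36 in all intervals of either list. No control library is listed, so this background comes from the same ATAC-seq reads, those of the wide interval among them. No member had a background below 4.24 times the floor in C4-2B or 4.37 times in C4-2BER. The members held 0.454% of the covered bases in C4-2B and 0.540% in C4-2BER.

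At the limit itself the classes turned on a few base pairs. In C4-2B the last intervals inside it were those of SLC2A4RG (2000 bp) and OSBPL6 (2001 bp), and the nearest ones outside it were those of EIF4E (1999 bp), the cap-binding factor of translation, and MXI1 (1998 bp), an antagonist of MYC. In C4-2BER, ALG3 (2001 bp) and TBC1D12 (2003 bp) were inside, and an interval over HSP90AA1 and WDR20 and another near COPZ2 (each 1997 bp) were outside.

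The regions broad in both lists were ranked by the narrower of their 2 widths, and the 4 widest held no coding TSS. The widest, chr1:629114-634884, spanned 5771 bp in C4-2B and 5766 bp in C4-2BER and covered annotated pseudogenes of mitochondrial subunits, among them MTND2P28, MTCO1P12 and MTATP6P1. C4-2B held 391 reads at the lead summit and C4-2BER held 394, and the summit with most reads had 395 in both lists, the most of any summit. The region chr5:134925122-134928431, inside PCBD2 and over the pseudogenes MTND4P12 and MTND5P11, spanned 3299 and 3310 bp, with 390 and 395 reads. Another region, chr11:10507861-10510367 at MIR4485, spanned 2501 and 2507 bp and held 316 and 320 reads. Of the 31-base words of these 3 regions, 62.9%, 18.0% and 27.7% also occurred in the mitochondrial genome, and none of the other 218 regions shared such a word. The part that mitochondrial reads had in these intervals was not tested. Their widths differed by at most 11 bp between the lists. Duplicate reads had been removed, which limits the number of reads that a window of 200 bp can hold. Whether the counts of up to 395 reads were at that limit was not tested, so alike counts in both lists need not mean alike signal.

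The second widest, chr21:6368973-6372614 on the short arm of chromosome 21, spanned 3361 bp in C4-2B and 3642 bp in C4-2BER. No annotated gene of GENCODE had a TSS in it, and the nearest coding TSS, that of TPTE, was 4149 kb away. It held 304 and 308 reads at its lead summit over a local background of 100.8 and 104.4 reads. These 4 regions were the only ones above 300 reads, as the plot of reads at the lead summit shows. The fourth widest by the narrower width, chr9:70418168-70421107, spanned 2940 and 2900 bp over the start of a long noncoding RNA gene (ENSG00000289159), 3511 bp from the TSS of KLF9, a glucocorticoid-responsive transcription factor gene.

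Among coding promoters broad in both lists, the widest by the narrower of its widths was that of H1-5 and H2AC16, histone genes that start on opposite strands. Its interval, chr6:27864987-27867704, was 2661 bp wide in C4-2B and 2714 bp in C4-2BER, with 5 and 7 summits. The VPS9D1 and ZNF276 promoter spanned 2763 and 2654 bp. ANP32B spanned 2580 and 2660 bp. YWHAZ, which encodes the zeta 14-3-3 protein, spanned 3200 bp in C4-2B, the fourth widest interval of that list, and was split in C4-2BER into an interval of 2446 bp and a shorter one. Other regions of this class, chosen after their values were seen, included CDKN2A, the gene of the p16 cell cycle inhibitor (2253 and 2099 bp), CEBPB (2216 and 2203 bp), NFE2L2, the regulator of the antioxidant response (2142 and 2159 bp), and IGF1R, the insulin-like growth factor receptor (2124 and 2030 bp). The start of TALAM1, the antisense transcript of MALAT1, lay in an interval of 2182 and 2190 bp. The host gene of the miR-200c cluster (MIR200CHG), a repressor cluster of epithelial to mesenchymal transition, lay in one of 2116 and 2087 bp.

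Every region broad in one list was open, at least in part, in the other. No C4-2B member lacked a C4-2BER interval (0 of 148, 0 to 2.53%), beside 37.7% of all C4-2B intervals, and no C4-2BER member lacked a C4-2B interval (0 of 140, 0 to 2.67%), beside 20.8%. A wide interval has more room for an overlap than a narrow one. In 46 of the 148 C4-2B members (31.1%, 24.2 to 38.9%) the other list held 2 or more intervals, beside 1.91% of all C4-2B intervals. The count was 53 of 140 in C4-2BER (37.9%, 30.2 to 46.1%), beside 1.67%.

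**Figure D3:**
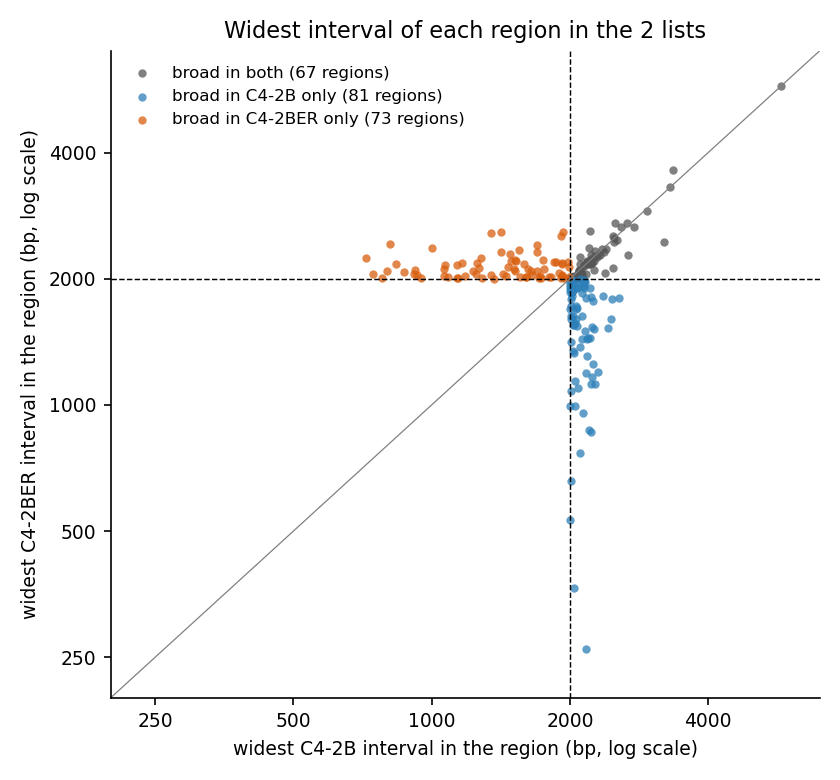
Widest C4-2B interval (x axis, bp, log scale) against the widest C4-2BER interval (y axis, bp, log scale) in each of the 221 regions, coloured by class, with the limit of 2000 bp as dashed lines and equal widths as the diagonal. Regions broad in both lists follow the diagonal up to 5771 and 5766 bp, while regions broad in one list reach down to 261 bp in C4-2BER and 720 bp in C4-2B.

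In the 81 regions broad in C4-2B only, C4-2BER intervals covered a median of 89.3% of the region (quartiles 82.3 and 93.2, range 21.4 to 99.5%). The widest C4-2BER interval in them had a median of 1628 bp and ranged from 261 to 1997 bp. It reached 1800 bp or more in 30 of the 81 regions and stayed under 1000 bp in 10. C4-2BER held 1 interval in 38 of these regions, 2 in 36 and 3 in 7. The gaps between C4-2BER intervals had a median of 104.5 bp (range 52 to 1102), and 38 of 50 gaps were 200 bp or less.

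In the 73 regions broad in C4-2BER only, C4-2B intervals covered a median of 91.6% (quartiles 82.9 and 95.1, range 36.4 to 98.5%). The widest C4-2B interval had a median of 1489 bp (range 720 to 1994 bp), reached 1800 bp in 16 regions and stayed under 1000 bp in 11. C4-2B held 1 interval in 21 of them, 2 in 48 and 3 in 4. The gaps had a median of 112 bp (range 50 to 538), and 45 of 56 were 200 bp or less. The shortest gap between neighbouring intervals anywhere was 49 bp in C4-2B and 51 bp in C4-2BER, so no shorter dip split an interval.

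Most summits were in the same place in both lists, also where the width differed. The summit with most reads lay within 100 bp of that of the other list in 59 of the 81 regions broad in C4-2B only (72.8%, 62.3 to 81.3%), in 59 of the 73 broad in C4-2BER only (80.8%, 70.3 to 88.2%) and in 51 of the 67 broad in both (76.1%, 64.7 to 84.7%). Over all regions, 878 of the 1037 C4-2B summits (84.7%) had a C4-2BER summit within 100 bp. The rank percentile of the lead summit was also alike, with medians of 89.7 in C4-2B and 89.8 in C4-2BER for the regions broad in C4-2B only, and 90.8 and 92.7 for those broad in C4-2BER only. In reads, the regions broad in C4-2B only had medians of 141 and 113, those broad in C4-2BER only 151 and 137, and those broad in both 158 and 145. The higher C4-2B medians are beside its deeper list.

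**Figure D4:**
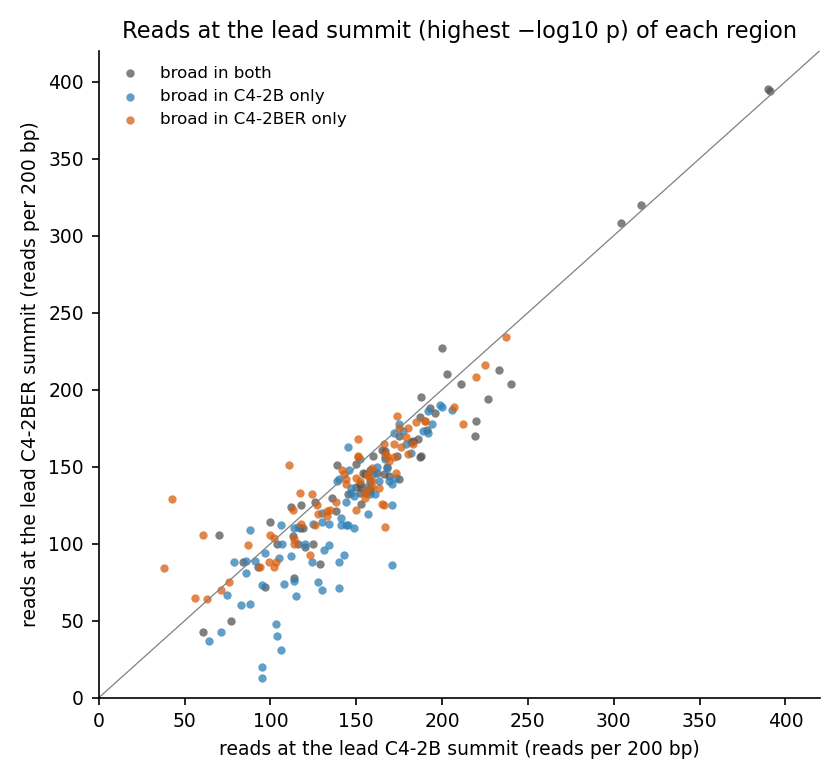
Reads per 200 bp at the lead summit of each of the 221 regions in C4-2B (x axis) and C4-2BER (y axis), coloured by class, with the line of equal reads. Most regions of each class lie along 1 band, 4 regions broad in both lists stand above 300 reads, and AQP4-AS1 (95 against 13) and KLF12 (43 against 129) are among those farthest from the line.

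Where 1 coding gene was in a region, the gaps lay about as far from its TSS in either list. In regions broad in C4-2B only, the centres of 22 of 30 C4-2BER gaps were downstream of the TSS (73.3%, 55.6 to 85.8%), at a median distance of 749.5 bp. In regions broad in C4-2BER only, 20 of 36 C4-2B gaps were downstream (55.6%, 39.6 to 70.5%), at a median of 752 bp. The intervals of the 2 shares overlapped.

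The widest regions broad in C4-2B only were still covered over most of their length in C4-2BER. H1-2, a linker histone gene, was in an interval of 2555 bp in C4-2B (chr6:26054052-26056606, 145 reads), whereas C4-2BER had 3 intervals, the widest of 1795 bp, and 112 reads. At ZIC2 the width was 2469 bp in C4-2B and 1793 bp in C4-2BER, with 116 and 111 reads. The promoter of EEF1D, an elongation factor subunit, and TIGD5 spanned 2461 bp in C4-2B and at most 1600 bp in C4-2BER. SOCS2, a feedback inhibitor of cytokine signalling, spanned 2363 bp against 1817 bp. EOLA2 on chromosome X spanned 2426 bp against 1523 bp, although C4-2BER covered 2373 bp of it in 2 intervals and both lists had 172 reads at the lead summit. EOLA2 was the single C4-2B member on chromosome X (1 of 148, 0.676%), beside 2.73% of all C4-2B intervals, and C4-2BER had none there (0 of 140).

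The regions with the largest difference in covered length mostly had no coding TSS within 2000 bp. The largest was chr18:26763813-26765983, which held a TSS of AQP4-AS1, a long noncoding RNA gene, and lay 96.9 kb from the TSS of AQP4. C4-2B had 1 interval of 2171 bp with 4 summits and 95 reads there, and C4-2BER had 2 intervals that covered 464 bp with 13 reads. The second was in an intron of TUNAR, a gene expressed in neural tissue, at chr14:95885982-95888020. It spanned 2039 bp in C4-2B, where the lead summit had 106 reads, while C4-2BER covered 573 bp of it with 31 reads. A region within exons of PHF21A, a reader of unmethylated histone H3, at chr11:45933105-45935107 was covered over 2003 bp (104 reads) and 827 bp (40 reads). The region chr10:112360508-112362771, 11.3 kb from the TSS of ACSL5, a long-chain acyl-CoA synthetase, was covered over 2264 bp (140 reads) and 1321 bp (71 reads). The promoter of TMC6 was covered over 2054 and 1208 bp. In these 5 regions the C4-2BER value was also the lower one in reads, with 88 against 140 at TMC6.

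Regions without a coding TSS within 2000 bp, here called distal, numbered 12 among those broad in C4-2B only and 7 among those broad in C4-2BER only. Distal refers to coding genes alone, and some of these regions held the TSS of a noncoding gene. Beside the one near ACSL5, the widest in C4-2B lay 330 kb from MYT1L, which encodes a neuronal zinc finger factor, at chr2:2661028-2663260 (2233 bp, 124 reads), where C4-2BER had 3 intervals of at most 1166 bp and 88 reads. The next lay inside FAM20C, a kinase of secreted proteins, at chr7:234159-236383 (2225 bp, 83 reads), where C4-2BER had 3 intervals of at most 861 bp and 60 reads. In C4-2BER the widest of these regions was chr12:120290731-120293309, which held the TSSs of RNU4-1 and RNU4-2, the genes of the U4 RNA of the spliceosome. It spanned 2579 bp in C4-2BER (112 reads), while C4-2B had an interval of 1928 bp and a second one, with 126 reads. It is the region whose window, printed among the sequences, held the cyclic AMP response element. A region of 2320 bp at chr11:69654065-69656384 overlapped CCND1, which encodes cyclin D1, and lay inside LTO1. C4-2B covered 1343 bp of it, with 151 reads against 157. The third was the start of LINC02939 at chr22:46069695-46071828, with 2134 bp against 1988 bp.

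Among regions broad in C4-2BER only, ACVR2B, which encodes an activin receptor, had the widest interval, at 2583 bp with 103 reads (chr3:38453190-38455772). C4-2B had 2 intervals there, of at most 1419 bp, that together covered 2486 bp with 114 reads. SP3, the gene of a GC-box binding factor, spanned 2576 bp with 141 reads, and C4-2B covered 2501 bp in 2 intervals with 152 reads. SCAF11, a splicing-related gene, spanned 2523 bp against 1917 bp. LAMTOR2, a subunit of the lysosomal Ragulator complex, and UBQLN4 spanned 2427 bp, and C4-2B split this region into 3 intervals of at most 813 bp. In these promoters the counted reads at the lead summit were lower in C4-2BER than in C4-2B. They were 163 and 176 at SCAF11 and 158 and 167 at LAMTOR2. These counts are not scaled for depth, and the genome-wide background of the C4-2BER list was also lower, at 1.87 against 2.24 reads.

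At 2 of the 5 largest differences in covered length of this class, reads were also more than 2 times as high in C4-2BER. At RNA5SP18, a 5S ribosomal RNA pseudogene (chr1:228646378-228648425), C4-2BER had 2048 bp with 5 summits and 84 reads, and C4-2B had 745 bp with 2 summits and 38 reads. At the KLF12 promoter (chr13:74133759-74136000), a transcriptional repressor gene, C4-2BER had 2242 bp and 129 reads, and C4-2B had 3 intervals that covered 1346 bp with 43 reads. ZNF789 was covered over 2184 bp in C4-2BER and 1242 bp in C4-2B, with 165 and 166 reads. ZIC5 was covered over 2010 and 1137 bp, with 88 and 99 reads. ZIC5 and ZIC2 lie side by side on chromosome 13, and ZIC5 was broad in C4-2BER only whereas ZIC2 was broad in C4-2B only.

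**Figure D5:**
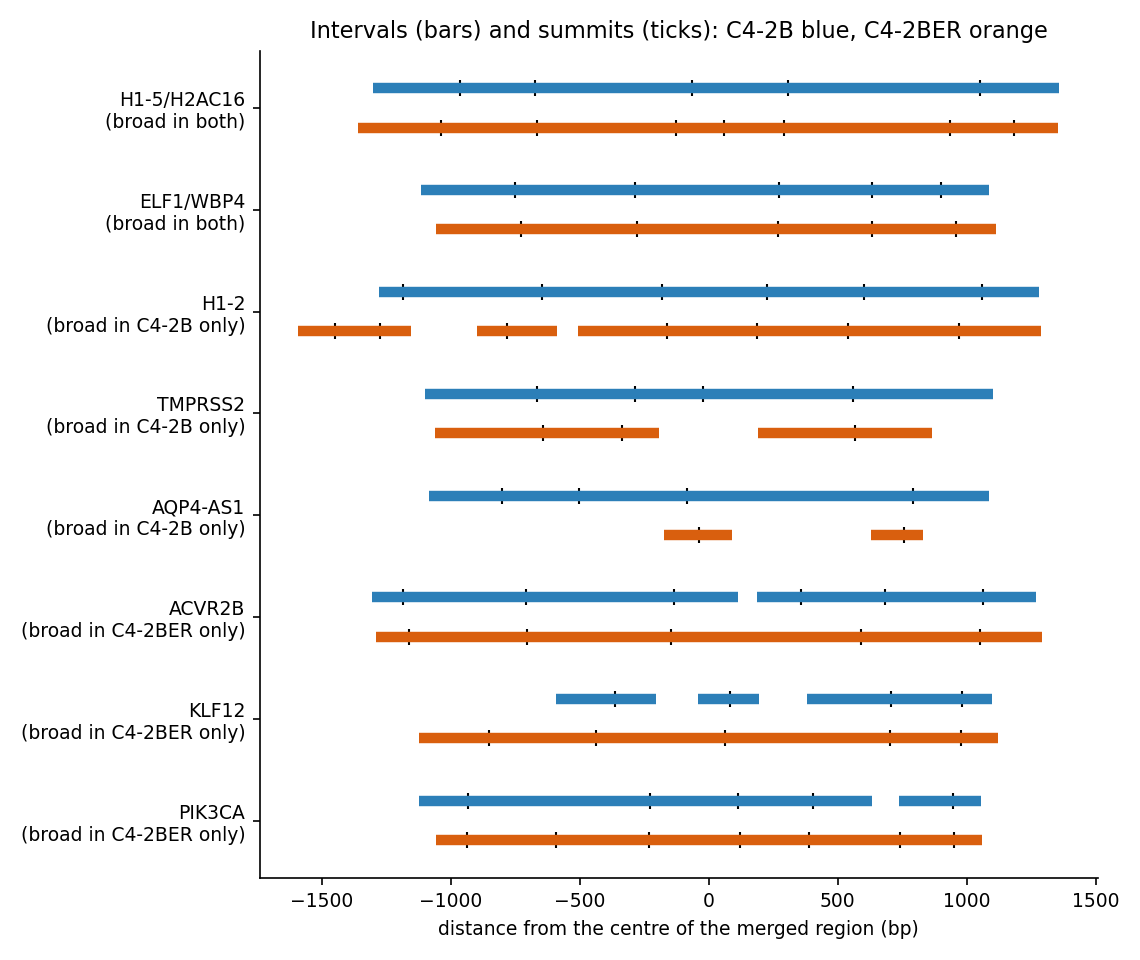
Intervals (bars) and summits (black ticks) of C4-2B (blue) and C4-2BER (orange) in 8 regions, drawn against the distance in bp from the centre of the merged region. The H1-5/H2AC16 and ELF1/WBP4 regions are single intervals in both lists, TMPRSS2 and AQP4-AS1 are broken up in C4-2BER, and ACVR2B, KLF12 and PIK3CA are broken up in C4-2B.

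Over all coding genes 1.16% had a TSS in a broad region, so that few or no members were to be found in lists as short as those of prostate and neuroendocrine identity. Of 20 luminal and androgen-regulated genes, 1 (5%) had a TSS in a broad region, which was TMPRSS2, an androgen-regulated serine protease gene. Its promoter interval, chr21:41506533-41508735, was 2203 bp wide in C4-2B with 4 summits and 128 reads. In C4-2BER there were 2 intervals, the widest of 869 bp, that covered 1542 bp, with 75 reads. The other 19 genes of the list had no TSS interval of 2000 bp in either line. Among them the widest TSS interval was that of FKBP5, an androgen-regulated co-chaperone gene, with 1757 bp in C4-2B and 1731 bp in C4-2BER. It was 1559 and 1604 bp wide at GATA2, a cofactor of androgen receptor binding, and 1258 and 1494 bp at FOXA1, the pioneer factor of the luminal lineage. At the keratin genes it was 924 and 1582 bp (KRT8) and 641 and 1582 bp (KRT18). At KLK2, an androgen-regulated kallikrein, it was 1355 bp in C4-2B and 521 bp in C4-2BER. Both lists had a TSS interval at 19 of the 20 genes, TMPRSS2 included. The wider one was in C4-2B for 10 genes and in C4-2BER for 9.

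Of 22 neuroendocrine genes, 0 had a TSS in a broad region. An interval lay over a TSS of 14 of them in C4-2B and 19 in C4-2BER, and their widest TSS interval had a median of 829 and 820 bp over the genes with one. In 13 genes both lists had one, the wider of which was in C4-2B for 8 genes and in C4-2BER for 5. Among the former were NCAM1 (719 and 473 bp), TUBB3 (819 and 623 bp) and SOX11, which hardly differed (826 and 820 bp). Among the latter were SNAP25 (492 and 1170 bp) and CHGB (595 and 912 bp). For 6 genes C4-2BER alone had a TSS interval and for 1, PAX5, C4-2B alone (640 bp). MYCN, an oncogene of neuroendocrine tumours, had no TSS interval in C4-2B and one of 1211 bp in C4-2BER. FOXA2 had none and 1065 bp, CHGA, the granule protein chromogranin A, none and 779 bp, SRRM4, a neural splicing factor, none and 797 bp, NKX2-1 none and 498 bp, and INSM1 none and 240 bp. These widths stood beside medians of 979 and 1028 bp over all intervals with a coding TSS.

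Of 39 HOX genes and 28 immediate early genes, 0 had a TSS in a broad region. These lists, like the 2 before them, were chosen with earlier results of these data known, so their shares are a description. Of 18 housekeeping genes, 1 had one (YWHAZ, 5.56%). Of 44 other developmental transcription factor genes, 4 did (9.09%, beside 1.16% of all coding genes): ZIC2 in C4-2B only, and FOXD1 (2131 bp against 1464 bp), SIX4 (2208 bp against 1526 bp) and ZIC5 in C4-2BER only.

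Gene families were read from symbols after the members had been seen, and their counts are a description. The share over all coding genes was 1.16%. Of 10 Frizzled receptors, which bind Wnt ligands, FZD8 was broad in both lists (2101 and 2255 bp), and FZD5 (2114 bp against 1512 bp) and FZD7 (2007 bp against 1732 bp) in C4-2BER only. Of 42 ZBTB zinc finger genes, ZBTB1, ZBTB14 and ZBTB25 were broad in both lists and ZBTB2 and ZBTB5 in C4-2BER only. Of 512 ZNF genes, 6 (1.17%) were members. KLF12 and KLF13 were the 2 members among 18 KLF genes, both in C4-2BER only. Of 76 histone genes, 6 were members: H1-5 and H2AC16 in both lists, H1-2 in C4-2B only, and H2BC5, H2AC25 and H2BC26 in C4-2BER only. Of 19 SOX genes 0 were members, and of 45 FOX genes 1 was (FOXD1). The other families read were ELF (2 of 5), ZIC (2 of 5), KCTD (2 of 21), HNRNP (2 of 26), ribosomal protein (2 of 85) and SLC symbols (6 of 373).

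Some members belonged to growth and survival pathways, again chosen after their values were seen. PIK3CA, the catalytic subunit of a lipid kinase of growth factor signalling, was 2114 bp wide in C4-2BER, whereas C4-2B had 2 intervals of at most 1753 bp that covered 2006 bp, with 137 reads in C4-2BER and 159 in C4-2B. BCL2, the inhibitor of apoptosis, was 2062 bp wide in C4-2B and 1603 bp in C4-2BER (112 and 92 reads). NFKB1 was 2074 and 1703 bp wide (105 and 91 reads). HK2, a glycolytic hexokinase, was 2076 bp wide in C4-2BER, and C4-2B had 2 intervals of at most 871 bp that covered 1323 bp, with 125 and 127 reads. In each of these 4 regions the narrower list still covered most of the region. Its reads at the lead summit, not scaled for depth, were between 82.1% and 116% of those of the broader list.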

How the data were processed

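ATAC-seq reads of 4 libraries, 2 of C4-2B and 2 of C4-2BER, were trimmed with cutadapt, aligned to hg38 with Bowtie2, filtered by mapping quality and freed of duplicates with Picard by the authors. The libraries of a line were merged, and macs2 called peaks without a model, with reads extended to 200 bp. The macs2 version is not given in the sources used here. The submitters' processing notes also name FastQC and bedtools 2.17.

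Each deposited row is a summit with its interval, and rows that share an interval were counted as 1 interval with several summits. The deposited fold is the authors' ratio of reads at the summit to the local background. Each summit carries a −log10 p and a −log10 q, deposited as macs2 gave them, with multiple testing corrected inside the list. The deposited score restates the q-value as a whole number and was not used. The other deposited columns used hold the start and end of the interval and the place of the summit in it.

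Reads at each summit and the local background were recovered from the deposited fold and −log10 p, which a whole number of reads solved for 100% of summits in both lists. The step was tested on simulated data. An interval was broad from 2000 bp. Coding TSSs came from GENCODE release 44, matched by position to hg38, whose chromosome ends no interval passed. Scripts used Python 3.11.15 with pandas 2.3.3, numpy 2.4.6 and scipy 1.17.1.

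With 1 merged list per line no test was made. Shares carry Wilson 95% intervals. The regions, gene lists and alternatives were chosen with earlier results of these data known. Named were the 5 widest regions of each class, the 5 largest differences in covered length and the 3 widest distal regions of the classes broad in one list, the 3 regions with most summits (with ties), members at luminal or neuroendocrine genes, and the 2 intervals either side of the width limit in each list. Alternatives were other widths, a −log10 q of at least 10, equal numbers or shares of intervals, joined gaps, reciprocal overlap, other TSS distances, 1 TSS per gene and a wider motif window. A region at 1 gene is not reported here by name.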

Additional observations from a re-analysis of the deposited data

How the results depend on the processing

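No paired analysis was possible because the authors merged the libraries of each line before calling peaks, and leaving out each replicate was not run for the same reason. The class counts follow the width limit. At 1500 bp, 1180 regions were broad in both lists, 516 in C4-2B only and 706 in C4-2BER only. At 2500 bp the counts were 9, 4 and 6, and at 3000 bp 3, 1 and 0. With gaps of up to 200 bp joined in both lists they were 226, 186 and 170. With members of a local background over 3 times the floor left out, 0 regions remained in any class, because every member lay above that limit. A −log10 q of at least 10 left the 3 counts unchanged, and is no check of them because members lay above it. Equal numbers, equal shares and a reciprocal overlap of 50% each left the 3 counts within 1.5 times their values. With gaps joined in the other list alone, 23 regions broad in C4-2B only and 35 broad in C4-2BER only reached 2000 bp there. The median widest interval in the other list then became 1927 bp and 1991 bp, and the covered share in C4-2B became 96.0%. The share with a coding TSS fell to 69.6% at 1500 bp in the class broad in C4-2B only. At 3000 bp it was 0% of the 3 regions broad in both lists and 100% of the 1 region broad in C4-2B only. Within 250 bp of the summit, 40 of 44 motif shares stayed within their intervals. The exceptions were the GC box at members with a coding TSS (84.8% in C4-2B and 87.6% in C4-2BER), and in C4-2BER the androgen receptor hexamer AGAACA at such members (15.7%) and TATA at the others (21.1%). Counts of listed genes and medians of summits kept their values or stayed within 1.5 times. Depth per library is unknown, and 1 list per line gives no error between libraries.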
